A study of Mus musculus with 12 samples.

Results

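The 10 genes described here encode the transforming growth factor beta (TGF-beta) ligands Tgfb1 and Tgfb3, the receptors Tgfbr1, Tgfbr2 and Tgfbr3, the signal-carrying transcription factors Smad2 and Smad3, and the inhibitors Smad7, Ski and Skil. They were taken by name from the 56748 gene IDs of the count files, after the mouse Ensembl IDs were matched to symbols. All 10 were found, and all 10 were among the 16016 genes that passed the filter on low counts and were tested. Their messenger RNA was read in natural killer (NK) cells, lymphocytes of innate immunity that kill infected or malignant cells without priming.

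The 12 libraries came from NK cells sorted out of mouse lymph nodes and fell into 3 groups of 4. In the hematogenous group diffuse large B cell lymphoma, an aggressive B cell cancer, had spread to the node through blood vessels. In the lymphatic group it had spread through the lymphatic system. The tumor-free group came from nodes of C57BL/6J mice without lymphoma. The lymphoma cells used, how and when the tumors were established, the strain, age and sex of the tumor-bearing mice, the sorting markers and any pooling of animals are not stated in the labels. Samples carry numbers 1 to 4 within each group, and no label says that they came from separate animals. The p-values therefore reflect sample-to-sample spread that may be technical.

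TGF-beta is made as a latent dimer and acts once it is released from its propeptide. The active ligand binds the type II receptor TGFBR2, which recruits and phosphorylates the type I receptor TGFBR1. TGFBR1 then phosphorylates SMAD2 and SMAD3, which enter the nucleus with SMAD4 and regulate target genes. In NK cells this pathway is known as a brake on cytotoxicity, on interferon-gamma production and on proliferation, and as a signal that favours features of tissue-resident group 1 innate lymphoid cells.

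Gene counts ran from 6654215 to 43494812 per library, between 10087837 and 19625766 in hematogenous, 17672832 and 43494812 in lymphatic and 6654215 and 23674960 in tumor-free libraries. At equal depth, tumor-free replicates 1, 2 and 4 had reads on 14168 to 14748 genes and the other 9 libraries on 16851 to 21864. In levels of CPM (counts scaled to library size, with edgeR's trimmed mean of M values), the sum of 10 NK cell markers was 6905 to 8177 in hematogenous, 9748 to 13058 in lymphatic and 10791 to 12883 in tumor-free libraries, so the labelled cell type carried its markers in every library. T cell markers summed to 546 to 725 CPM in hematogenous, 332 to 547 in lymphatic and 291 to 488 in tumor-free libraries. The 10 B cell markers, the lineage of the lymphoma, summed to 358 to 517 CPM in hematogenous, 443 to 863 in lymphatic and 343 to 467 in tumor-free libraries. Their median log2 fold change was 0.29 in the hematogenous and 1.06 in the lymphatic against the tumor-free libraries, with Pax5 called higher in both, and their part in the results was not tested beyond a fit with their mean level as a covariate. The share of reads that fell on no annotated feature was 17.5% to 24.6% in the hematogenous, 13.9% to 17.4% in the lymphatic and 11.4% to 21.1% in the tumor-free libraries. In sorted but bulk RNA, fewer cells of a type and less RNA per cell cannot be told apart.

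A gene was called changed at a Benjamini-Hochberg adjusted p under 0.05 in edgeR's quasi-likelihood test over all 16016 genes. In the hematogenous against the tumor-free libraries 4 of the 10 members were called, Tgfb1, Tgfb3 and Ski lower and Tgfbr1 higher. The background of that comparison was 16.4% of all tested genes called, 9.52% higher and 6.87% lower. In the lymphatic against the tumor-free libraries 2 members were called, Tgfb3 and Ski, both lower, where 2.74% of all tested genes were called, 2.32% higher and 0.418% lower. That split depended on the scaling: 84.7% of the called genes were higher, against 73.2% with scaling by library size alone. Between the models 1 member was called, Tgfb1, lower in the hematogenous libraries, where 8.85% of all tested genes were called, 2.93% higher and 5.92% lower. This 1 in 10 stood near the background of its comparison. Of the genes called between the models, 33.1% were higher in the hematogenous libraries, and with 3 other scalings 47.4% to 55.8% were. The median log2 fold change of the 10 members was −0.08 in the hematogenous and −0.09 in the lymphatic against the tumor-free libraries, beside 0.08 in both comparisons over all tested genes. Both comparisons share the 4 tumor-free libraries.

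**Figure D1:**
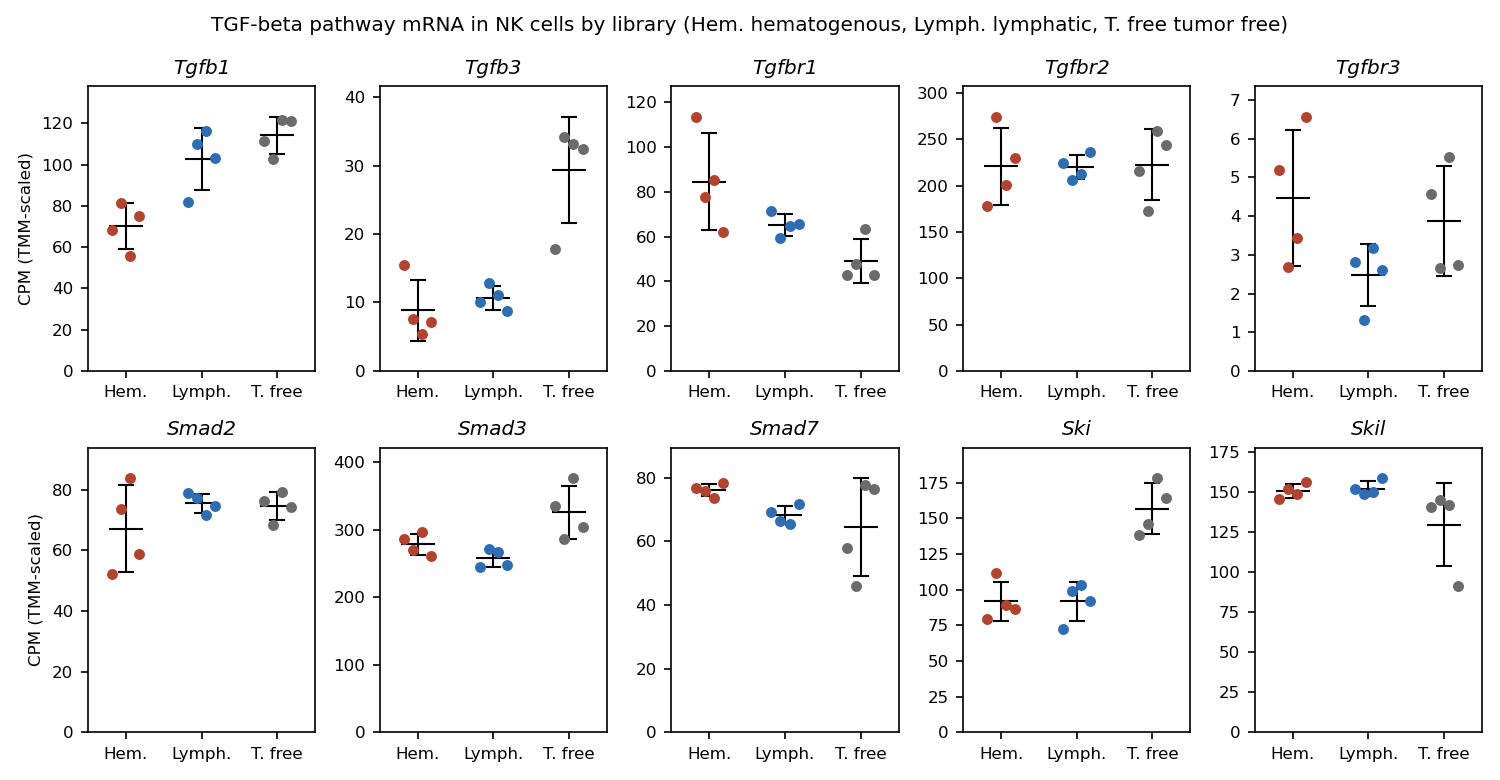
Levels of the 10 members in each library, in CPM on linear axes that start at 0; colored points are libraries of the hematogenous, lymphatic and tumor-free groups, and black bars are the mean and SD of 4 libraries. Tgfb3 and Ski sit lower in all 8 tumor-bearing libraries than in any tumor-free library, and Tgfb1 does so in the 4 hematogenous libraries.

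The 250 bases upstream of the annotated start are shown for 3 of the 4 called members, Tgfb1 and Ski, which fell together in the hematogenous libraries, and Tgfbr1, which rose there. The sequences are from RefSeq (GRCm38.p6), read 5′ to 3′ on the strand of the gene, and RefSeq entries were matched for 5 of the 10 members. That of Tgfb1 lies at chr7:25686752-25687001 on the plus strand, that of Ski at chr4:155222536-155222785 on the minus strand and that of Tgfbr1, the first of 2 listed, at chr4:47352972-47353221 on the plus strand. These positions belong to that build and not to GRCm39, on which the counts were made. Capitals mark GGGCGG, the GC box, in either orientation.
Tgfb1: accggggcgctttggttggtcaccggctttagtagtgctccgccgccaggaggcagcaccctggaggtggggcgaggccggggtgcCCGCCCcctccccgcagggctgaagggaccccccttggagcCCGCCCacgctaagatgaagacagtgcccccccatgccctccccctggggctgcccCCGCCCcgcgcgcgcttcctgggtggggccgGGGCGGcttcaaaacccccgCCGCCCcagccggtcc
Ski: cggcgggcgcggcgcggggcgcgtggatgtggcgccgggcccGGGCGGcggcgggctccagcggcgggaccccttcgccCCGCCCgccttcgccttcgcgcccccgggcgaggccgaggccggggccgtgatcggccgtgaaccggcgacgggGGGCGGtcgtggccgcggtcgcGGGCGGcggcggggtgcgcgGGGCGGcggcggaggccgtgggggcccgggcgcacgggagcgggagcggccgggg
Tgfbr1: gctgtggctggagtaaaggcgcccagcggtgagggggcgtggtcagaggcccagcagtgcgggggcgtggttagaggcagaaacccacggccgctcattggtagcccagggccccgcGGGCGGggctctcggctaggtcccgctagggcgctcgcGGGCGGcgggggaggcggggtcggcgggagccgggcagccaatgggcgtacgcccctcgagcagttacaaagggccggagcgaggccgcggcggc
GGGCGG was found 5 times upstream of Tgfb1, 5 times upstream of Ski and 2 times upstream of Tgfbr1, and at least once in 32.7% of all 32851 upstream windows of that length. The other 3 motifs were searched on both strands: GTCTAGAC, the palindrome bound by SMAD3 and SMAD4 (in 0.167% of all windows), CAGAC, the shorter SMAD box (42.2%), and TGANTCA, which takes in the AP-1 site (6.75%). None of these letters occurred in the 3 windows, so no match overlapped a GC box. The second Tgfbr1 window, at chr4:47385966-47386215, held 1 CAGAC and no GGGCGG, with 52.8% G and C. G and C made up 75.2% of the bases for Tgfb1, 87.6% for Ski and 74.8% for Tgfbr1, against a median of 52.4% over all windows. The matches describe letters in these windows and no site or cause.

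Both ligand genes fell in the hematogenous libraries, and Tgfb3 fell in the lymphatic libraries as well. Tgfb3 encodes TGF-beta3. Its level was 15.4, 7.52, 5.33 and 7.16 CPM in hematogenous replicates 1 to 4, 10.1, 12.9, 11.1 and 8.73 CPM in lymphatic replicates 1 to 4, and 17.8, 34.2, 33.2 and 32.4 CPM in tumor-free replicates 1 to 4. The lowest tumor-free library lay above all 8 tumor-bearing libraries, and the other 3 tumor-free libraries stood at least at 32.4 CPM. The log2 fold change of Tgfb3 was −1.74 (SE 0.318, 95% interval −2.40 to −1.08, edgeR adjusted p = 0.00122) in the hematogenous and −1.46 (SE 0.312, 95% interval −2.11 to −0.80, edgeR adjusted p = 0.0116) in the lymphatic against the tumor-free libraries. Between the models it was −0.28 (95% interval −0.93 to 0.36, edgeR adjusted p = 0.678). Counts for Tgfb3 ran from 84 to 779 per library. In the annotation used for lengths, 12.4% of its exon bases are shared with 2 noncoding gene models on the other strand, Gm37804 and Gm48008, which held 15 and 2 counts in all 12 libraries together. The reads are described as stranded, but the labels do not say whether the counting used the strand. Whether reads on the shared bases were counted for Tgfb3 or set aside as ambiguous is therefore not known.

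Tgfb1 encodes TGF-beta1, the isoform that leukocytes mainly make. It was read at 68.3, 81.6, 55.7 and 74.95 CPM in hematogenous, 81.9, 110, 116 and 103 CPM in lymphatic and 111, 103, 122 and 121 CPM in tumor-free libraries. Every hematogenous library was below every lymphatic and every tumor-free library, while the lymphatic and tumor-free ranges overlapped. The fall in the hematogenous libraries was −0.70 on the log2 scale (SE 0.144, 95% interval −1.0 to −0.40, edgeR adjusted p = 0.00286) against tumor free and −0.55 (SE 0.143, 95% interval −0.85 to −0.25, edgeR adjusted p = 0.0205) against the lymphatic libraries. The second call was lost without lymphatic replicate 2 or 3 or hematogenous replicate 1 or 3 (edgeR adjusted p = 0.0664, 0.0516, 0.0701 and 0.118) and with library size alone (edgeR adjusted p = 0.0536). In the lymphatic against the tumor-free libraries Tgfb1 had a log2 fold change of −0.15 (95% interval −0.45 to 0.15, edgeR adjusted p = 0.729). Platelets carry much TGF-beta1. The 7 markers of platelets and erythroid cells summed to 19.0 to 40.2 CPM in hematogenous, 11.8 to 30.1 CPM in lymphatic and 0 to 16.1 CPM in tumor-free libraries, with 2 of the 5 tested called higher in the hematogenous against the tumor-free libraries. Of the platelet genes on this list, Pf4 and Ppbp had 0 counts in all 12 libraries. Itga2b, a platelet integrin gene, averaged 11.2 CPM in hematogenous, 2.59 CPM in lymphatic and 1.48 CPM in tumor-free libraries. It was called higher in the hematogenous libraries against both other groups. In the hematogenous against the tumor-free libraries 4 of 10 T cell markers were called, all higher, and 7 of 10 NK cell markers, all lower, with none of either list at 0 in any group. The 5 regulatory T cell markers summed to 171 to 206 CPM in hematogenous, 100.7 to 153 CPM in lymphatic and 69.5 to 90.1 CPM in tumor-free libraries, with Ctla4 and Lrrc32 at 0 in the tumor-free group. Most of this sum was Ikzf2 (153 CPM in hematogenous and 62.9 CPM in tumor-free libraries) and Il2ra (31.8 and 12.9 CPM). Of the 4 tested, 3 (Ctla4, Il2ra and Ikzf2) were called higher in the hematogenous against the tumor-free libraries. Foxp3, which defines regulatory T cells, averaged 0.98 CPM in hematogenous, 1.23 CPM in lymphatic and 1.15 CPM in tumor-free libraries. The medians were 0.97, 1.03 and 0.02 CPM, and 1 tumor-free library at 4.56 CPM raised the mean of its group. The part of these shifts in the values of the called members was not tested.

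Of the 3 receptor genes 1 was called, Tgfbr1, which encodes the type I receptor kinase that phosphorylates SMAD2 and SMAD3. Its level was 114, 77.6, 85.4 and 61.9 CPM in hematogenous, 71.3, 59.2, 64.8 and 65.6 CPM in lymphatic and 43.03, 47.6, 63.6 and 42.9 CPM in tumor-free libraries. Tumor-free replicate 3 lay above hematogenous replicate 4 and above lymphatic replicate 2, so the groups overlapped. At equal depth that library had reads on 20919 genes, and tumor-free replicates 1, 2 and 4 on 14168 to 14748. The part of this difference in the values of Tgfbr1 was not tested. In the hematogenous against the tumor-free libraries Tgfbr1 rose, with a log2 fold change of 0.77 (SE 0.178, 95% interval 0.40 to 1.15, edgeR adjusted p = 0.00621). The call was lost with limma's voom and quality weights (limma adjusted p = 0.0725). Values of 0.40 (95% interval 0.03 to 0.77, edgeR adjusted p = 0.315) in the lymphatic against the tumor-free libraries and of 0.37 (95% interval 0.01 to 0.74, edgeR adjusted p = 0.219) between the models did not pass.

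Tgfbr2 encodes the type II receptor that binds the ligand first. It was read at 178, 275, 201 and 230 CPM in hematogenous, 225, 207, 213 and 236 CPM in lymphatic and 216, 173, 259 and 244 CPM in tumor-free libraries, and the ranges of the 3 groups overlapped. Its log2 fold change was −0.01 (95% interval −0.31 to 0.28, edgeR adjusted p = 0.965) in the hematogenous and −0.02 (95% interval −0.32 to 0.28, edgeR adjusted p = 0.977) in the lymphatic against the tumor-free libraries. Tgfbr3 encodes betaglycan, the coreceptor that presents ligand to TGFBR2. It was the member with the fewest reads, 18 to 130 counts per library, at 2.67 to 6.57 CPM in hematogenous, 1.31 to 3.18 CPM in lymphatic and 2.66 to 5.54 CPM in tumor-free libraries. Its interval of −1.0 to 1.38 in the hematogenous against the tumor-free libraries was the widest of the 10 members in that comparison. In the annotation used for lengths, 4.54% of the exon bases of Tgfbr3 are shared with the gene model Gm43422 on the same strand. That model held 28 counts in all libraries together.

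**Figure D2:**
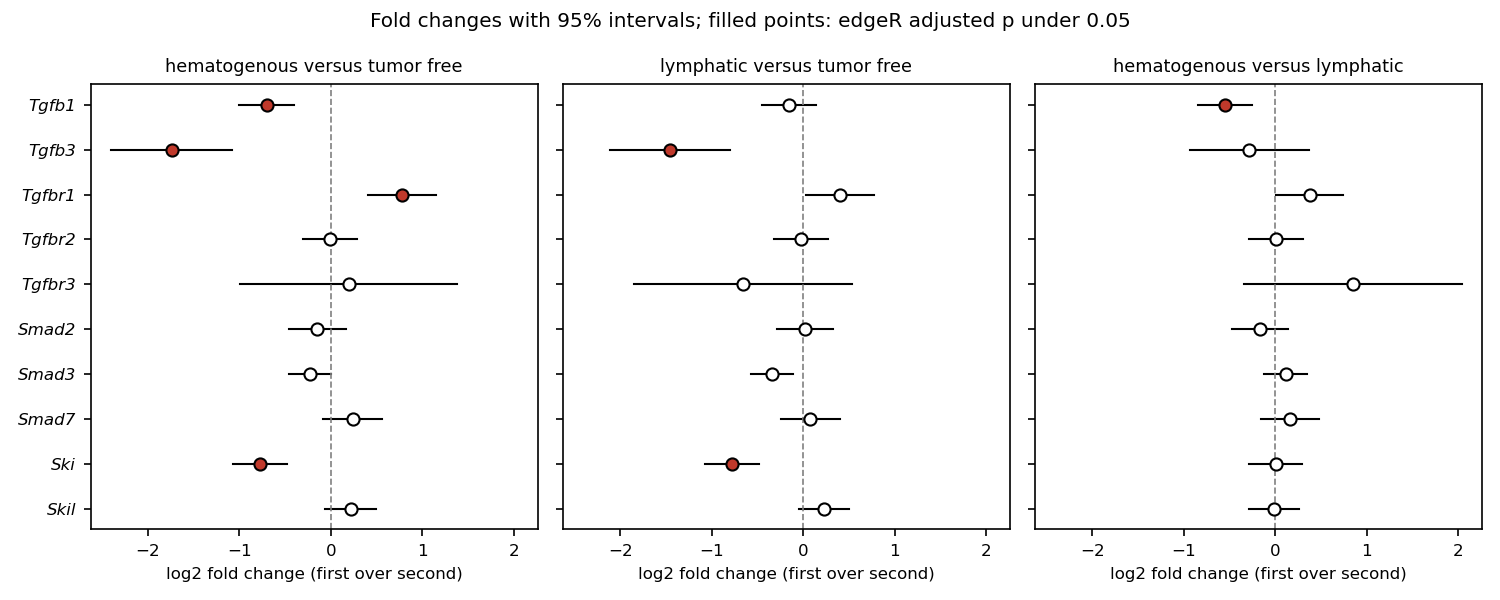
Log2 fold changes of the 10 members with 95% intervals in 3 comparisons, named first group over second; filled points are called by edgeR at an adjusted p under 0.05. Tgfb3 and Ski are called lower in both models against tumor free, Tgfb1 is called lower and Tgfbr1 higher in the hematogenous against tumor-free comparison, and Tgfb1 is the call between the models.

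Smad2 and Smad3, the SMADs that carry the signal from TGFBR1, were not called in any comparison. Smad3 was read at 285, 270, 297 and 262 CPM in hematogenous, 245, 271, 267 and 247 CPM in lymphatic and 335, 286, 376 and 305 CPM in tumor-free libraries. All lymphatic libraries lay below all tumor-free libraries, while hematogenous replicate 3 lay above tumor-free replicate 2. Smad3 had a log2 fold change of −0.34 (SE 0.111, 95% interval −0.57 to −0.11, edgeR adjusted p = 0.130) in the lymphatic and −0.23 (SE 0.111, 95% interval −0.46 to 0.01, edgeR adjusted p = 0.183) in the hematogenous against the tumor-free libraries. The lymphatic value was past the threshold with 3 other scalings, with DESeq2 and with voom and quality weights (adjusted p from 0.00399 to 0.0462). Smad2 was read at 52.3 to 83.8 CPM in hematogenous, 71.7 to 78.9 CPM in lymphatic and 68.2 to 79.3 CPM in tumor-free libraries. Its log2 fold change was −0.15 (95% interval −0.46 to 0.16, edgeR adjusted p = 0.555) in the hematogenous and 0.02 (95% interval −0.29 to 0.33, edgeR adjusted p = 0.977) in the lymphatic against the tumor-free libraries.

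Among the inhibitors, Ski fell in both models while Skil and Smad7 were not called. Ski encodes a corepressor that binds SMAD complexes and blocks transcription of their targets. It was read at 79.9, 112, 89.5 and 86.7 CPM in hematogenous, 72.7, 99.0, 103 and 92.4 CPM in lymphatic and 139, 146, 178 and 164 CPM in tumor-free libraries. The highest tumor-bearing library, hematogenous replicate 2, stayed below the lowest tumor-free library. Ski averaged 91.9 ± 13.7 CPM in hematogenous, 91.9 ± 13.5 CPM in lymphatic and 157 ± 17.9 CPM in tumor-free libraries (SD, n = 4 each). Its log2 fold change was −0.77 (SE 0.142, 95% interval −1.07 to −0.48, edgeR adjusted p = 0.00128) in the hematogenous and −0.77 (SE 0.142, 95% interval −1.07 to −0.48, edgeR adjusted p = 0.0031) in the lymphatic against the tumor-free libraries. Between the models it was 0.00 (95% interval −0.29 to 0.30, edgeR adjusted p = 0.997).

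Skil encodes SnoN, a corepressor related to SKI whose gene is itself induced by TGF-beta. It was read at 146, 152, 149 and 156 CPM in hematogenous, 152, 149, 150 and 159 CPM in lymphatic and 141, 145, 142 and 91.4 CPM in tumor-free libraries. All tumor-bearing libraries were above all tumor-free libraries, but 3 of the tumor-free libraries differed from them by little and 1 stood far lower. The log2 fold change of Skil was 0.21 (SE 0.132, 95% interval −0.06 to 0.49, edgeR adjusted p = 0.302) in the hematogenous and 0.23 (SE 0.132, 95% interval −0.05 to 0.50, edgeR adjusted p = 0.493) in the lymphatic against the tumor-free libraries. Smad7, the inhibitory SMAD that sends TGFBR1 to degradation and is a feedback target of the pathway, was read at 73.6 to 78.4 CPM in hematogenous, 65.4 to 71.7 CPM in lymphatic and 45.9 to 77.8 CPM in tumor-free libraries. Its log2 fold change was 0.24 (95% interval −0.09 to 0.56, edgeR adjusted p = 0.337) in the hematogenous and 0.08 (95% interval −0.25 to 0.40, edgeR adjusted p = 0.900) in the lymphatic against the tumor-free libraries. All hematogenous libraries lay above all lymphatic libraries for Smad7, and the log2 fold change of 0.16 between them did not pass (edgeR adjusted p = 0.631).

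Groups that did not overlap were found for 4 members in the hematogenous against the tumor-free libraries (Tgfb1, Tgfb3, Ski and Skil), where 19.5% of all tested genes did not overlap. In the lymphatic against the tumor-free libraries it was 4 members (Tgfb3, Smad3, Ski and Skil), with a background of 9.9%. Between the models it was 2 (Tgfb1 and Smad7), with a background of 20.5%. The 10 members differed in how far they ranged over the 12 libraries. For Tgfb3 the highest library held 6.42 times the lowest and for Tgfbr3 5.01 times, while for Smad3 this ratio was 1.54, for Tgfbr2 1.59 and for Smad2 1.60. Within the tumor-free group the coefficient of variation of Smad7 was 23.9% and that of Skil 19.7%, against 2.65% and 3.01% in the hematogenous and 4.16% and 2.98% in the lymphatic libraries. Smad3 also varied more in the tumor-free than in the hematogenous libraries (12.1% against 5.66%). The remaining members varied more in the hematogenous than in the tumor-free libraries, such as Tgfb3 (50.5% against 26.5%) and Smad2 (21.2% against 6.25%).

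Levels of different genes were compared only per length, as CPM per kilobase of annotated exon. In the tumor-free libraries Smad3 stood highest at 58.7 ± 7.12 CPM per kb (SD, n = 4), followed by Ski at 28.2 ± 3.21, Tgfbr2 at 27.2 ± 4.65, Tgfb1 at 22.7 ± 1.80, Smad7 at 14.3 ± 3.41 and Skil at 13.4 ± 2.64 CPM per kb. Below them came Tgfb3 at 8.68 ± 2.30, Smad2 at 8.48 ± 0.530, Tgfbr1 at 7.54 ± 1.496 and Tgfbr3 at 0.592 ± 0.216 CPM per kb. The ranges of neighbours in this order overlapped, except between Smad3 and Ski, between Tgfb1 and Smad7 and between Tgfbr1 and Tgfbr3. In the hematogenous libraries the order was Smad3 (50.2), Tgfbr2 (27.0), Smad7 (16.9), Ski (16.5), Skil (15.5), Tgfb1 (13.9), Tgfbr1 (13.0), Smad2 (7.65), Tgfb3 (2.62) and Tgfbr3 (0.683 CPM per kb). There the neighbours from Smad7 to Smad2 overlapped, and Tgfb1 stood beside Tgfbr1. In the lymphatic libraries Tgfb1 was at 20.4 ± 2.97, Tgfbr1 at 9.98 ± 0.756 and Tgfb3 at 3.17 ± 0.518 CPM per kb (SD, n = 4). The order depended on the annotated length: with the longest transcript in place of all exons, the mean over the 12 libraries was 37.2 in place of 19.0 CPM per kb for Tgfb1 and 21.5 in place of 14.9 for Skil, and 5 members changed rank (Tgfb1, Tgfbr2, Ski, Smad7 and Skil). On that length Tgfb1 stood at 27.3 CPM per kb in hematogenous, 39.97 in lymphatic and 44.4 in tumor-free libraries, and Tgfbr1 at 14.7, 11.3 and 8.56, so that their ranges no longer met in the hematogenous libraries. Tgfb1 then stood above Ski in every group and above Tgfbr2 in the lymphatic and tumor-free libraries.

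**Figure D3:**
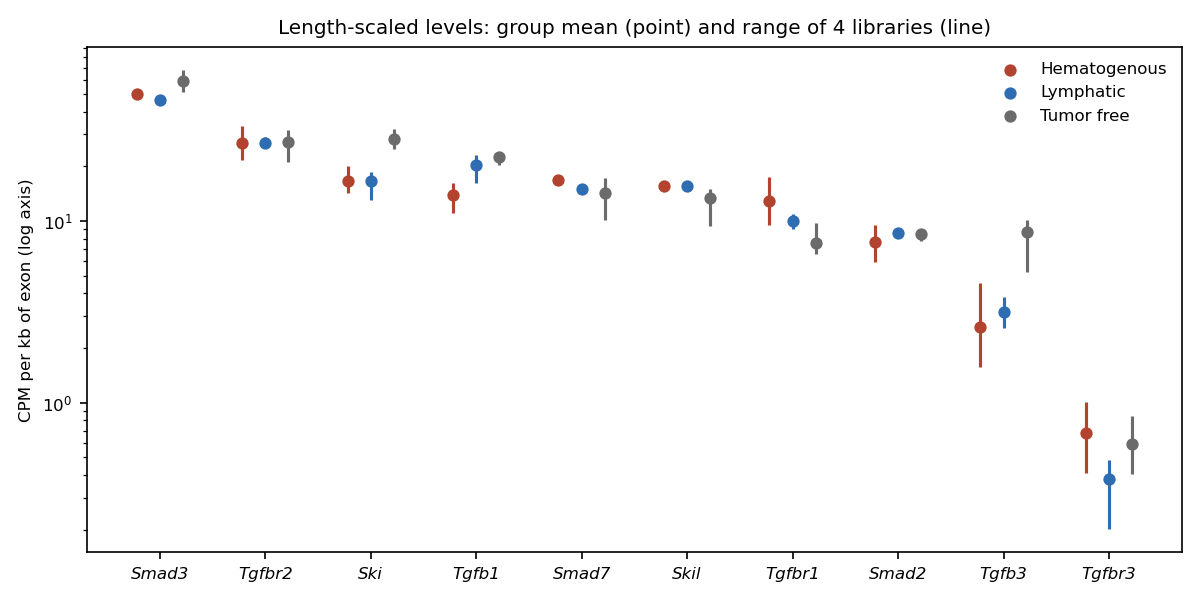
Per-length levels of the 10 members in CPM per kb of exon on a log axis, ordered by the mean over all 12 libraries; points are group means and lines run from the lowest to the highest of 4 libraries. Smad3 stands highest in every group and Tgfbr3 lowest, and the ranges of Ski and Tgfb3 in both tumor-bearing groups lie below those in the tumor-free group.

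The wider pathway was read through lists of genes that act around the members. Of 9 tested genes of ligand latency and activation, 1 rose and 1 fell in the hematogenous libraries and 1 rose in the lymphatic libraries, against tumor free. The share called over all tested genes was 16.4% and 2.74% in these comparisons. Nrros encodes a protein that tethers latent TGF-beta on myeloid cells. It averaged 71.5 ± 5.99 CPM in hematogenous, 104 ± 6.75 CPM in lymphatic and 97.8 ± 5.99 CPM in tumor-free libraries, and fell in the hematogenous against the tumor-free libraries (log2 fold change −0.45, edgeR adjusted p = 0.0151, SE 0.121). This call was lost without hematogenous replicate 3 (edgeR adjusted p = 0.0516) and without a filter (0.0581). Thbs1 encodes thrombospondin, which can activate latent TGF-beta. It was read at 8.03, 7.92, 0.63 and 1.31 CPM in the hematogenous and 0, 0, 1.83 and 3.37 CPM in the lymphatic libraries and had 0 counts in all tumor-free libraries. Thbs1 was called higher in the hematogenous against the tumor-free libraries (edgeR adjusted p = 0.0152, 95% interval 4.22 to 14.6 on the log2 scale). The call was lost with voom and quality weights (limma adjusted p = 0.108). With a floor of 3 counts for the whole tumor-free group, the pooled level of the hematogenous libraries was 68.8 times the floor. With 1 library left out, this ratio was 33.5 (without tumor-free replicate 3) to 89.9 (without hematogenous replicate 3), and it was 43.02 without hematogenous replicate 2. The floor covers counting error only, and the ratio leaves out the spread between libraries. Markers of macrophages and monocytes summed to 250 to 296 CPM in hematogenous, 219 to 307 CPM in lymphatic and 220 to 268 CPM in tumor-free libraries. Of their 10 genes, 9 were tested and 4 were called higher in the hematogenous against the tumor-free libraries, and Cd14 had 0 counts in the tumor-free group. The called genes were Csf1r (19.7 CPM in hematogenous and 6.01 CPM in tumor-free libraries), Cd68 (12.0 and 4.20 CPM), Adgre1 (5.82 and 0.35 CPM) and Cd14. The complement genes that mark macrophages were low and not called. C1qa averaged 1.05 CPM in hematogenous and 3.04 CPM in tumor-free libraries, C1qb 1.42 and 2.79 CPM and C1qc 0.31 and 2.96 CPM. For C1qa 1 tumor-free library at 10.2 CPM raised the mean, and the medians were 0.91 and 0.98 CPM. Over the list the median log2 fold change was 0.13, and the sums of the groups overlapped. Most of the sum was Itgam (149 CPM in hematogenous and 136 CPM in tumor-free libraries) and Lyz2 (91.1 and 95.4 CPM). The overlap of the sums therefore hardly reflects the called genes. The part of these markers in the values of Nrros and Thbs1 was not tested. Itgav, the integrin alpha V chain of TGF-beta-activating integrins, rose in the lymphatic libraries (101.4 ± 11.9 CPM, against 67.7 ± 1.81 CPM in the tumor-free libraries; log2 fold change 0.58, edgeR adjusted p = 0.0169, SE 0.132). It lost this call when lymphatic replicate 2, 3 or 4 or tumor-free replicate 1 was left out (highest edgeR adjusted p = 0.074), with library size alone (0.0501) and with a B cell covariate (0.0745).

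Among 19 tested genes of other SMADs and their regulators, 5 rose and none fell in the hematogenous libraries, and 1 rose in the lymphatic libraries. Of all tested genes 9.52% were called higher and 6.87% lower in the hematogenous comparison. The count of 5 was 3 without hematogenous replicate 3 or 4, lymphatic replicate 1 or 4 or tumor-free replicate 1 and with the compared groups alone, and 2 with the B cell covariate. The median log2 fold change was 0.17 and 0.08, beside 0.08 in each comparison over all tested genes. Rnf111 encodes Arkadia, a ubiquitin ligase that degrades SKI, SnoN and SMAD7. It averaged 146 ± 20.5 CPM in hematogenous, 110 ± 9.93 CPM in lymphatic and 85.7 ± 10.8 CPM in tumor-free libraries, a log2 fold change of 0.77 (edgeR adjusted p = 0.000838, SE 0.134) in the hematogenous against the tumor-free libraries. Trim33, whose product binds SMAD2 and SMAD3 and can ubiquitinate SMAD4, and Smad5, a SMAD of the bone morphogenetic protein branch, rose there by 0.44 (SE 0.112) and 0.55 (SE 0.142). The call of Smad5 was lost with the B cell covariate (edgeR adjusted p = 0.0588). Tgif1, a homeobox corepressor of SMAD2 and SMAD3, averaged 38.0 ± 8.03 CPM in hematogenous, 60.9 ± 18.4 CPM in lymphatic and 23.1 ± 6.33 CPM in tumor-free libraries. It rose, with a log2 fold change of 1.40 (edgeR adjusted p = 0.0017, SE 0.237) in the lymphatic and of 0.72 (edgeR adjusted p = 0.0425, SE 0.236) in the hematogenous against the tumor-free libraries. The second call of Tgif1 was lost when hematogenous replicate 3 or 4, lymphatic replicate 1 or 4 or tumor-free replicate 1 or 4 was left out (highest edgeR adjusted p = 0.137), with voom, with the covariate and with the compared groups alone.

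None of 7 tested genes of other receptors of the family was called by edgeR against tumor free in either model. At an unadjusted p under 0.05 there were 2 in the hematogenous and 1 in the lymphatic libraries, and DESeq2 called 2 and 1. In the non-SMAD arm, which runs through TAK1, RHOA and p38 kinases, 1 of 10 tested genes was called in the hematogenous libraries and none in the lymphatic libraries, where 1 had an unadjusted p under 0.05 and DESeq2 called none. In the hematogenous comparison, with a background of 16.4% called, 5 had an unadjusted p under 0.05 and DESeq2 called 3, and 13 of 23 alternatives gave 2 or 3. The gene called by edgeR was Rhoa, a small GTPase of the cytoskeleton, at 267 ± 38.4 CPM in the hematogenous and 383 ± 32.0 CPM in the tumor-free libraries (log2 fold change −0.52, edgeR adjusted p = 0.00947, SE 0.128).

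Genes listed as induced by TGF-beta moved both ways, and the only called gene of this list that fell was Id2. Whether TGF-beta induces Id2 in these cells was not tested. Leaving out Smad7 and Skil, 13 were tested, of which 2 rose and 1 fell in the hematogenous libraries and 1 rose and 1 fell in the lymphatic libraries, with medians of 0.03 and −0.10. Over all tested genes, 16.4% were called in the hematogenous and 2.74% in the lymphatic comparison. Bhlhe40, a transcription factor also induced by activating receptors and cytokines, rose, with a log2 fold change of 0.91 (edgeR adjusted p = 0.0035, SE 0.192) in the hematogenous and of 1.52 (edgeR adjusted p = 9.26e-05, SE 0.194) in the lymphatic against the tumor-free libraries. Id2, an inhibitor of E proteins that NK cells need, averaged 531 ± 139 CPM in hematogenous, 473 ± 61.0 CPM in lymphatic and 847 ± 166 CPM in tumor-free libraries. Its log2 fold change was −0.67 (edgeR adjusted p = 0.0125, SE 0.174) in hematogenous and −0.84 (edgeR adjusted p = 0.00948, SE 0.175) in lymphatic libraries, each against tumor free. The first call was lost without tumor-free replicate 2 (edgeR adjusted p = 0.0556), and both were lost with the covariate (0.0757 and 0.178). Tgfbi, which encodes a matrix protein named for its induction by TGF-beta and is also expressed by macrophages, was read at 5.199, 26.1, 12.2 and 25.9 CPM in hematogenous, 2.53, 1.67, 8.37 and 7.88 CPM in lymphatic and 4.68, 0, 1.02 and 0.43 CPM in tumor-free libraries. It was called higher in the hematogenous against the tumor-free libraries (log2 fold change 3.48, edgeR adjusted p = 0.00864, SE 0.833). The part of the macrophage and monocyte markers given above was not tested.

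In a list of residency genes and of the TGF-beta imprint of group 1 innate lymphoid cells, 4 of 19 tested genes rose and 5 fell in the hematogenous libraries, and 4 rose and 4 fell in the lymphatic libraries. Over all tested genes, 9.52% were called higher and 6.87% lower in the hematogenous and 2.32% and 0.418% in the lymphatic comparison. The list mixes directions, since Eomes is also on the list of genes restrained by TGF-beta. Its split into risen and fallen genes therefore does not show a gain or loss of residency. The medians of the list were 0.03 and −0.26. The lymphatic count of 8 was 3 without tumor-free replicate 4, 4 without lymphatic replicate 4 and 5 without tumor-free replicate 1, without lymphatic replicate 1 and with the B cell covariate. Itga1, the integrin chain CD49a and a marker of residency, averaged 36.4 ± 6.50 CPM in hematogenous, 24.1 ± 5.58 CPM in lymphatic and 64.2 ± 9.93 CPM in tumor-free libraries. Its log2 fold change was −0.82 (edgeR adjusted p = 0.00819, SE 0.197) in the hematogenous and −1.41 (edgeR adjusted p = 0.000263, SE 0.199) in the lymphatic against the tumor-free libraries. Nt5e, which encodes the ectonucleotidase CD73, rose in the hematogenous against the tumor-free libraries (47.9 ± 15.5 CPM, against 16.9 ± 3.81 CPM in the tumor-free libraries; log2 fold change 1.5, edgeR adjusted p = 0.000644, SE 0.25). In the same comparison Itgb1, the integrin beta 1 chain that pairs with CD49a, and Cd9, a tetraspanin, fell by 0.67 (SE 0.112) and 0.84 (SE 0.147) on the log2 scale. In the lymphatic libraries Zfp683, which encodes the residency factor Hobit, fell by 2.83 (SE 0.46), and the G protein regulators Rgs1 and Rgs2 rose by 2.07 (SE 0.375) and 1.70 (SE 0.236). The call of Rgs1 was lost without tumor-free replicate 4 (edgeR adjusted p = 0.051) and without a filter (0.0569). Rgs2 was also called higher in the hematogenous (log2 fold change 0.90) and Cd9 lower in the lymphatic against the tumor-free libraries (−0.56). This call of Rgs2 was lost without hematogenous replicate 4 (edgeR adjusted p = 0.052), and that of Cd9 in 7 of 23 alternatives.

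Genes that TGF-beta is known to restrain in lymphocytes were called lower in 7 of 18 cases and higher in none in the hematogenous libraries, and in the lymphatic libraries 1 was called, higher. Of all tested genes 6.87% were called lower and 9.52% higher in the hematogenous and 0.418% lower and 2.32% higher in the lymphatic comparison. The medians of the list were −0.19 and −0.07. Ncr1, the activating receptor NKp46, and Prf1, the pore-forming protein perforin, fell by 1.09 (edgeR adjusted p = 7.89e-05, SE 0.141) and 1.06 (edgeR adjusted p = 0.000468, SE 0.17) on the log2 scale in the hematogenous against the tumor-free libraries. The T-box factor genes Tbx21 and Eomes, which set the NK cell program, fell there by 0.77 (SE 0.147) and 0.51 (SE 0.125). Ncr1, Prf1, Tbx21 and Eomes are also on the list of NK cell markers, whose sum was lower in all hematogenous libraries than in any tumor-free library. Eomes is counted in the residency list too. The number of called genes in this list was 4 without tumor-free replicate 2, without hematogenous replicate 4 and with a B cell covariate. In the lymphatic libraries the called gene was Ifng, the cytokine interferon-gamma, at 190 ± 72.5 CPM, against 64.8 ± 17.8 CPM in the tumor-free libraries (log2 fold change 1.56, edgeR adjusted p = 0.000417, SE 0.231).

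**Figure D4:**
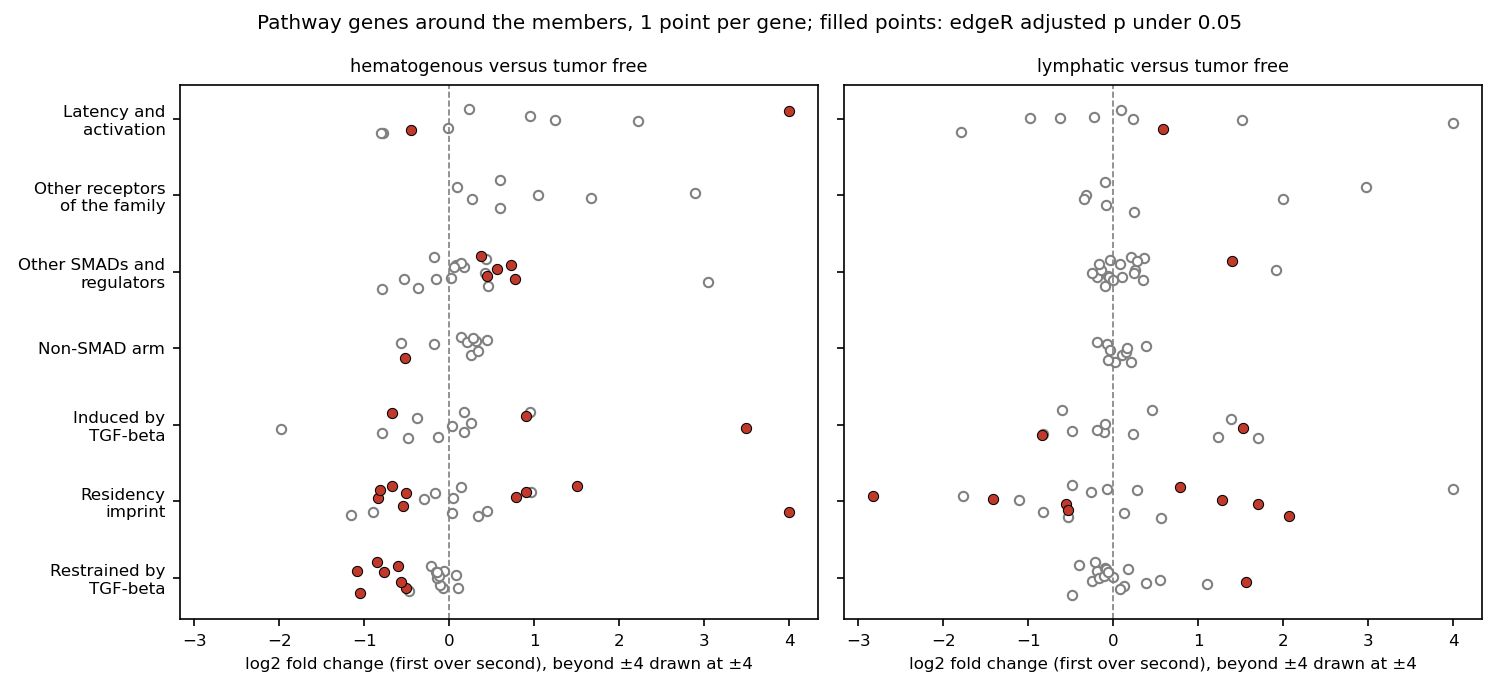
Log2 fold changes of the tested genes of 7 lists around the members in the hematogenous and in the lymphatic against the tumor-free libraries, 1 point per gene, with filled points called by edgeR at an adjusted p under 0.05; values beyond 4 are drawn at 4, and vertical scatter within a list carries no value. In the hematogenous comparison the 5 called SMAD regulators lie above 0 and the 7 called genes restrained by TGF-beta lie below 0.

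The genes whose pattern was most like that of a called member were named by the smallest root mean square difference of centered log2 CPM over the 12 libraries, among 9375 genes with a mean of at least 5 CPM. For Tgfb3 these were St5 at 0.39, Mrpl57 at 0.41 and Oplah at 0.47 log2 units, where the median gene stood at 0.94. For Ski they were Rmnd5b at 0.17, Eya2 at 0.18 and Clnk at 0.18, with a median of 0.53. Tgfb1 was followed most closely by Plekho2 and Zyx at 0.11 and Ptpn7 at 0.12 (median 0.46), and Tgfbr1 by Ric8b at 0.11, Zkscan3 at 0.13 and Cbl at 0.14 (median 0.51). The libraries share the depth and cell type differences given at the start, and the likeness is a description.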

How the data were processed

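RNA sequencing of sorted NK cells gave 12 libraries, grouped and numbered by their titles. Raw read counts per gene were deposited by the authors, 1 file per library. The submitters' processing notes name HISAT2 2.1.0, HTSeq 2.0.2, Trimmomatic 0.39 and FastQC 0.11.9, and build GRCm39. Reads were stranded and single-ended per the labels. No source used here gives the annotation release, settings or strand option. Beside 56748 gene IDs a file had 5 summary lines without a gene. Library sizes and tests leave these out. They held reads outside features (11.4% to 24.6% of all reads), ambiguous (1.55% to 2.12%), unaligned (5.51% to 14.6%) and with several alignments (3.85% to 6.48%). Symbols and exon lengths came from GENCODE M21. Symbols matched 91.8% of IDs, and 97.8% of tested genes had a length.

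The counts were tested with edgeR 4.0.16 in R 4.3.3 (quasi-likelihood F test, robust, TMM scaling, default filter by group, group as the only term, all 12 libraries, 9 residual degrees of freedom). Adjusted p-values run over all 16016 tested genes. Standard errors (SE) were taken as the size of the log2 fold change divided by the root of F. Intervals cover 95%. Alternatives used DESeq2 1.42.0 and limma 3.58.1, other scalings and filters, a replicate block, a B cell covariate (10 marker genes), equal depth (6654215 counts), the compared groups alone and leaving out each library.

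The members, lists and tests were chosen with earlier results of these data known. All 10 members were named. Each list gave at most 4 named genes per comparison with tumor free, those called with the lowest adjusted p. The alternatives on list genes, the Thbs1 ratio to the floor with 1 library left out and group levels by longest transcript were added after seeing the data. Same-numbered libraries are not said to be paired in the labels. Counts come from reads without molecular identifiers.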

Additional observations from a re-analysis of the deposited data

Results flagged for a closer look

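In groups of 4 libraries, a library was looked at again where its gap to the nearest other library exceeded Dixon's 95% critical share of the range of the group. Over the members and the named genes of the lists this held in 9 of 99 groups, where chance alone gives about 5%. Of these, 2 concern members. Tgfb3 stood at 17.8 CPM in tumor-free replicate 1, against 32.4 to 34.2 CPM in the other tumor-free libraries. Skil stood at 91.4 CPM in tumor-free replicate 4, against 141 to 145 CPM in the other tumor-free libraries.

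Among list genes, hematogenous replicate 1 stood apart for Itgav at 93.9 CPM, for Zfp683 at 13.5 CPM and for Ncr1 at 863 CPM, each the highest of its group. Tgif1 was highest in hematogenous replicate 4 at 50.04 CPM and Bhlhe40 in lymphatic replicate 2 at 680 CPM. Tumor-free replicate 2 was highest for Rgs1 at 86.7 CPM and for Ifng at 91.3 CPM.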

How the results depend on the processing

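The calls of Tgfb3 and Ski in both models and of Tgfb1 in the hematogenous model, against tumor free, kept their direction and stayed past the threshold under all 23 alternatives (highest adjusted p = 0.0456). The number of members called between the models was 0 with library size alone and 0 to 1 when 1 library was left out. Genes called came to 729 with DESeq2 and 216 with the B cell covariate in the lymphatic and to 1454 with the covariate in the hematogenous against the tumor-free libraries, in place of 439 and 2625, and to 2913 with voom and quality weights between the models, in place of 1417. The covariate moved with the group, between −0.256 and 0.823 in hematogenous, 0.0131 and 1.68 in lymphatic and −2.80 and 0.678 in tumor-free libraries (log2, centered). Leaving out 1 library gave 1760 to 3202 genes in the hematogenous and 255 to 634 in the lymphatic against the tumor-free libraries, and 620 to 1572 between the models. Library size alone moved the median of all genes between the models from −0.01 to 0.10. With the longest transcript the level was 37.2 CPM per kb for Tgfb1 and 21.5 for Skil.

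Fold changes that were not called could turn their sign. Smad2 in the lymphatic against tumor-free libraries (0.02) was −0.0495 with DESeq2 size factors, −0.0496 with DESeq2, −0.0563 with upper quartile, −0.0640 with library size alone, −0.0038 without a filter, −0.0224 with the compared groups alone and −0.000316 with the covariate. Smad7 there (0.08) was −0.0057 with library size alone and −0.15 with the covariate, and Prf1 (−0.11) was 0.0435 with it. In the hematogenous against tumor-free libraries Tgfbr2 (−0.01) was 0.0011, 0.0067, 0.0028 and 0.0217 with upper quartile, library size alone, no filter and voom. Tgfbr3 (0.19) was −0.0797 with voom, −0.0730 with the covariate and −0.0102 at equal depth, and Ifng (−0.11) was 0.13 with the covariate. Between the models Skil (−0.01) was 0.0516 with DESeq2 size factors and with DESeq2, 0.0755 with upper quartile, 0.0912 with library size alone and 0.0240 without a filter, and Ski (0.00) was −0.0062 with the covariate. The cause was not tested.

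With 1 library left out, the range ran through 0 for Smad2 (−0.0522 to 0.0616), Smad7 (−0.0847 to 0.19), Tgfbr2 (−0.15 to 0.0720), Prf1 (−0.34 to 0.0053), Tbx21 (−0.19 to 0.0336) and Rhoa (−0.16 to 0.0373) in the lymphatic and for Tgfbr2 (−0.13 to 0.0837), Tgfbr3 (−0.0463 to 0.43) and Ifng (−0.28 to 0.10) in the hematogenous against the tumor-free libraries. It also did so for Tgfbr2 (−0.0739 to 0.14), Ski (−0.10 to 0.11) and Skil (−0.0311 to 0.0430) between the models. Called genes in a list ranged over the alternatives, in the hematogenous and the lymphatic libraries against tumor free, from 1 to 2 and 0 to 2 (latency), 0 to 2 and 0 to 1 (receptors), 2 to 7 and 1 to 2 (SMAD regulators), 1 to 3 and 0 to 1 (non-SMAD arm), 2 to 4 and 2 to 3 (induced), 8 to 11 and 3 to 10 (residency) and 4 to 7 and 1 to 3 (restrained). With a replicate block, 2518, 362 and 1439 genes were called in the hematogenous and the lymphatic against the tumor-free libraries and between the models, and 4, 2 and 1 members. Same-numbered libraries did not deviate together over all genes (correlations −0.07 to 0.06 over 12 pairs). A pairing with a small effect could go unseen in this, and the labels state none.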
